A study of Amia calva with 36 samples.

Results

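RNA was compared between dorsal and ventral mesoderm of the foregut of bowfin (Amia calva) embryos at Ballard stage 24, just before the gas bladder buds. The comparison rests on 6 of the 36 libraries of the series, chosen by their labels: 3 of dorsal and 3 of ventral mesoderm. The embryos grew from fertilized eggs of wild nests and were kept at 12.8 °C. The labels name no mutation and no treatment. Transverse cryosections of 15 µm were cut along the length of the gas bladder bud, and the dorsal and ventral parts of endoderm and mesoderm were cut out by laser within 2 hours per slide. The RNA was amplified before sequencing. The series also holds the endoderm of stage 24 and both layers from embryos with a forming bud (stage 25) or a lengthening one (stage 27), with 3 libraries in each of the 12 groups. The labels do not say how many embryos went into a library or whether dorsal and ventral libraries share embryos. Each p-value thus reflects no more than scatter among libraries. In the exact permutation tests these are the libraries compared, and in the limma fits they are all libraries fitted, 36 unless stated otherwise. The samples are also pieces of tissue, in which fewer cells of a type and less RNA per cell cannot be told apart.

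The gas bladder is an air-filled organ that most ray-finned fishes use for buoyancy and that the bowfin also uses to breathe air. It buds from the upper, dorsal side of the foregut tube, and lungs bud from the lower, ventral side. The foregut wall has an inner endoderm, which gives rise to the epithelium of these organs, and a surrounding mesoderm, which gives rise to their smooth muscle and connective tissue. In mouse and chick, signals from the mesoderm next to the ventral endoderm help to set the place of the lung buds. Stage 24 mesoderm is thus the tissue around the prospective bud at a time when no bud can be seen. The question addressed is which genes differed between its dorsal and ventral side by then.

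The deposited table names genes by bowfin identifiers and, for some, by the Ensembl identifier of the spotted gar ortholog (the spotted gar is another ray-finned fish). It pairs neither with gene names, so no pathway, marker list or gene role could be given and genes are described by their levels. For the same reason the captured tissue could not be checked against known markers. It was checked instead with genes that limma found to differ between endoderm and mesoderm in the 24 libraries of stages 25 and 27 (adjusted p under 0.05), none of which is a stage 24 library. Of these genes 247 were higher in endoderm and 483 in mesoderm. The stage 25 libraries alone gave only 4 and 2 such genes, and those of stage 27 alone gave 426 and 774. In dorsal mesoderm replicates 1, 2 and 3, 3.38%, 3.57% and 4.16% of reads came from the mesoderm-higher genes, and in the ventral replicates 3.77%, 5.0% and 3.6% did. The endoderm-higher genes took 1.78%, 0.841% and 1.62% dorsally and 1.18%, 1.59% and 1.63% ventrally. The mesoderm-higher list thus held the larger share in each of the 6 libraries, as the labels say. It was also the longer list (483 against 247 genes), which by itself favours a larger share. The sides overlapped in both measures, with a two-sided exact permutation p of 0.9 for the endoderm-higher and 0.5 for the mesoderm-higher genes, where 3 against 3 libraries cannot give less than 0.1. The direction of the small side difference in endoderm-higher genes (-0.0526 percentage points, dorsal minus ventral) was not stable: it was 0.234 without dorsal replicate 2, 0.00948 without ventral replicate 2 and 0.0294 without ventral replicate 3. At stage 24 the endoderm-higher list took 2.76% to 4.97% of reads in dorsal endoderm and 1.17%, 4.1% and 1.38% in ventral endoderm. In ventral endoderm replicates 1 and 3 more reads came from the mesoderm-higher list (1.58% and 3.16%), which is the longer one. The ratio of the endoderm-higher to the mesoderm-higher share was 0.74 in replicate 1, above the 6 mesoderm libraries (0.235 to 0.528). In replicate 3, which held only 3040 reads, the ratio was 0.438, within the range of the mesoderm libraries.

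**Figure D1:**
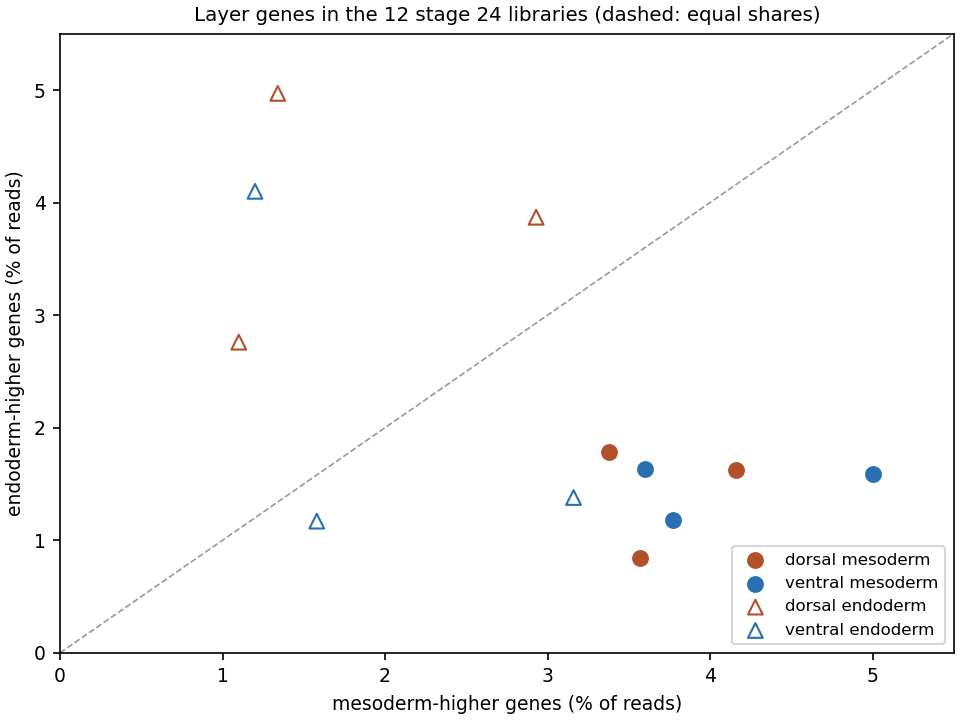
Percent of reads from genes higher in endoderm (vertical axis) against percent from genes higher in mesoderm (horizontal axis), with 1 point per stage 24 library and the genes chosen in libraries of stages 25 and 27. All 6 mesoderm libraries lie below the dashed line of equal shares, and 2 of the 3 ventral endoderm libraries lie below it as well.

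Read depth and the number of genes seen differed between libraries of the same side. Dorsal mesoderm replicates 1, 2 and 3 held 1508115, 746538 and 847631 reads assigned to genes, and ventral replicates 561256, 512370 and 1623825. The other 30 libraries of the series held 377516 to 1998280 reads, except for ventral endoderm replicate 3 of stage 24 with 3040. With every library thinned at random to 512370 reads, a read was found for 5792, 7063 and 3983 genes dorsally and for 4331, 2700 and 5380 ventrally. Dorsal libraries averaged 5613 ± 1548 genes and ventral ones 4137 ± 1350 (SD, n = 3 each), and the ranges overlapped (two-sided exact permutation p = 0.3, with 0.1 the smallest possible). The lowest library of all 6 was ventral replicate 2, and the difference between sides of 1476 genes was 757.0 without it and 750.0 without dorsal replicate 2, the highest. Without dorsal replicate 3 it was 2290 and without ventral replicate 3 it was 2097. The libraries of a side thus differed in the number of genes they held.

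Among the 14132 genes tested (over 1 CPM, the reads of a gene per 1000000 reads of the library, in at least 3 of the 36 libraries), detection was patchy. No read was found in any of the 6 libraries for 3530 genes (25.0%), and 996 genes (7.05%) were read in all 6. Of the rest, many were read in 1 library only: 1957 in 1 dorsal and no ventral library, and 1007 in 1 ventral and no dorsal library. Genes read in all 3 libraries of a side and in none of the other side numbered 186 dorsally (1.32% of those tested) and 17 ventrally (0.12%).

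**Figure D2:**
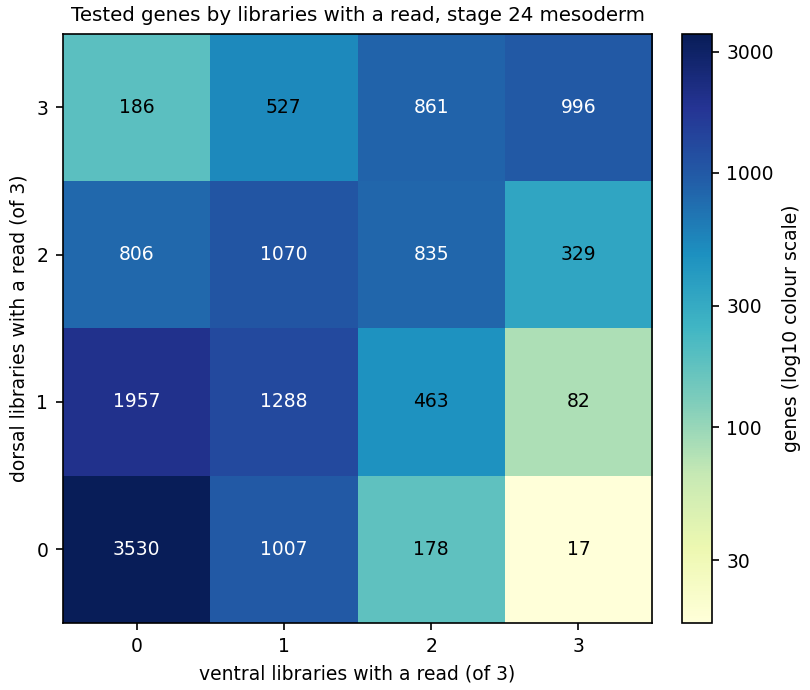
Number of tested genes by the number of dorsal (vertical axis) and ventral (horizontal axis) stage 24 mesoderm libraries in which they had a read, with colour on a log10 scale. The corners show 186 genes read in 3 dorsal and 0 ventral libraries, 17 in the reverse pattern, 996 read in all 6 and 3530 read in none.

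Genes with a high level in 1 library often had no read in another library of the same side, for which the cause was not tested. At equal depth, 3232 genes reached 100 CPM, or about 51.2 reads, in at least 1 dorsal library. Of these genes 1715 (53.1%) were read in all 3 dorsal libraries, 465 (14.4%) were read in 1 only, and 439 reached 100 CPM in all 3. On the ventral side 3044 genes reached that level in a library, of which 1115 (36.6%) were read in all 3, 826 (27.1%) in 1 only, and 298 reached it in all 3. A gene at 100 CPM in a dorsal library had a read in another dorsal library in 64.2% to 85.9% of cases (median 81.3% over 6 ordered pairs) and in a ventral library in 51.0% to 81.6% (median 72.8% over 9 pairs). A gene at that level in a ventral library was seen in another ventral library in 52.1% to 78.8% of cases (median 68.2%) and in a dorsal library in 64.0% to 85.7% (median 78.9%). By these medians, genes strongly read in a ventral library were found more often in dorsal than in other ventral libraries. The share followed the library in which the genes were looked up, and ventral replicate 2 gave the lowest share for each of the other 5 libraries. Rank correlations of CPM over the 996 genes read in all 6 libraries were 0.45 to 0.54 between dorsal libraries, 0.26 to 0.46 between ventral libraries and 0.29 to 0.54 between sides (Spearman, 3, 3 and 9 pairs, given as a description since the pairs share libraries and sequencing depth). Likeness between libraries of opposite sides thus overlapped that between libraries of the same side.

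The same gene led the libraries of both sides. AMCG00006382, which carries no gar identifier, had the most reads in each of the 6 libraries. This gene also took 9.87% to 22.0% of reads in stage 24 endoderm and 10.6% to 18.3% in stage 25 mesoderm. In stage 27 mesoderm it took 3.79% to 8.46%. In stage 24 mesoderm it took 10.5%, 18.5% and 13.1% of the reads of dorsal replicates 1 to 3 and 10.1%, 5.75% and 12.8% of those of ventral ones. The sides overlapped and did not differ beyond the spread between libraries (14.0% ± 4.04 against 9.54% ± 3.54, two-sided exact permutation p = 0.2). The 100 most abundant genes of each library took 38.8%, 45.8% and 45.4% of reads dorsally and 40.8%, 52.1% and 38.6% ventrally. Genes with a gar ortholog took 45.5% to 50.1% of reads dorsally and 47.7% to 51.9% ventrally, again with overlap (exact permutation p = 0.2). The sides thus overlapped in the share held by their leading genes, although 3 libraries a side leave room for differences of several percentage points.

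The 996 genes read in all 6 libraries, 600 of them with a gar ortholog, held 58.1% to 64.0% of the reads of each library. Their mean level had a median of 219 CPM. Dorsal and ventral means lay within 2-fold of each other for 500 of them (50.2%). The dorsal mean was over 4 times the ventral one for 114 genes and the ventral mean over 4 times the dorsal one for 108. On the scale of the limma fit, which averages log2 values, the counts over 4-fold were 163 dorsally and 73 ventrally, with a median log2 difference of 0.25. All 3 dorsal libraries lay above all 3 ventral ones for 56 of these genes (5.62%, against 3.53% of all tested genes), and the reverse held for 46 (4.62%, against 0.736%). The shares of all tested genes include 3530 genes with no read in the 6 libraries, which cannot lie apart. Where the sides are alike, 6 distinct values lie apart with a chance of 0.1, the smallest p of the exact test, both directions counted together. The shares of 5.62% and 4.62% each cover a single direction, so their sum is what compares with 0.1. No excess is read from them. Limma called none of these 996 genes (35 had an unadjusted p under 0.05, against 1065 of the 14132 tested), and the coefficient of variation between libraries of a side had a median of 74.6% dorsally and 94.6% ventrally. The standard error of the log2 difference had a median of 1.77 for these genes, so that a 4-fold difference (2 on the log2 scale) was close to 1 standard error in the typical gene.

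Dorsal and ventral mesoderm at stage 24 differed in 3 of the 14132 tested genes (0.0212%) in a limma fit of the log2 CPM values over all 36 libraries, at a Benjamini-Hochberg adjusted p under 0.05. AMCG00006945 and AMCG00005387 were higher dorsally (0.0142% of tested genes) and AMCG00019538 was higher ventrally (0.00708%). AMCG00005387 was among the tested genes only through the dorsal libraries in which it was high, as described below. Over all tested genes 1065 had an unadjusted p under 0.05, and 2044 were over 4-fold higher dorsally and 774 over 4-fold higher ventrally in the fit. Most of these large differences thus did not pass. If no gene differed, a share of about 0.05 of the tested genes would still have an unadjusted p under 0.05. Such counts are thus not read as side differences. The 3 calls take their spread from all groups of the series. Outside the 6 compared libraries, AMCG00006945, AMCG00005387 and AMCG00019538 had a read in 13, 2 and 7 of 30 libraries. With the 12 stage 24 libraries alone limma called 0 genes (smallest adjusted p 0.186, 554 with an unadjusted p under 0.05), and with the 6 compared libraries alone it also called 0 (smallest adjusted p 0.849, 322 with an unadjusted p under 0.05). With the 18 mesoderm libraries it called 4 genes, 0 of them among the 3. Median centring of the libraries gave 0 calls (the smallest adjusted p was 0.337, and 727 genes had an unadjusted p under 0.05). It used the median of the genes with a read, so genes with no read were moved by amounts that differed between libraries. AMCG00005387, with no read in endoderm, thus got a log2 side difference of 0.78 in stage 24 endoderm. This setting is therefore no plain check of the 3 calls. The recovered reads fitted with limma voom gave 17 called genes, 1 of them among the 3. That fit included stage 24 ventral endoderm replicate 3, with 3040 reads, and called 8041 genes in the side contrast of stage 24 endoderm. Without this library limma voom called 32 genes between the sides of stage 24 mesoderm, 2 of them among the 3. Quantile normalization gave 19 calls, which included the 3, with 7 higher dorsally and 12 higher ventrally in place of 2 and 1.

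**Figure D3:**
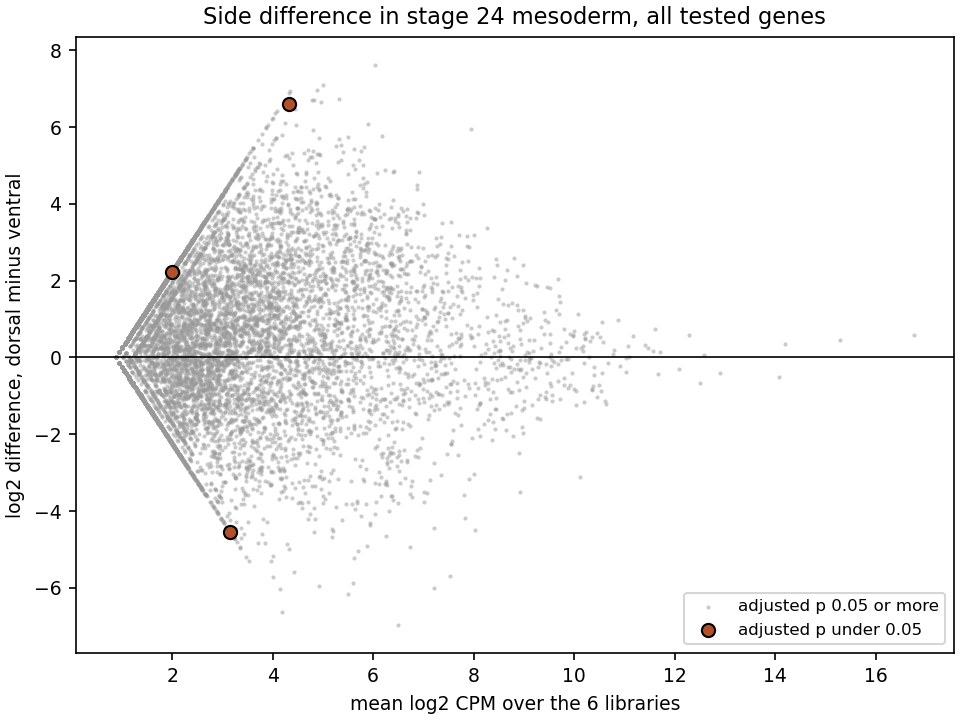
Log2 difference between dorsal and ventral stage 24 mesoderm (vertical axis, positive where dorsal is higher) against the mean log2 CPM of the 6 libraries (horizontal axis), with 1 point per tested gene. The 3 called genes (large points) lie among many uncalled genes of similar size above and below the zero line.

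Single libraries moved the number and the direction of the calls. Without dorsal replicates 1, 2 and 3 in turn, 33, 21 and 17 genes were called, most of them higher dorsally (30, 19 and 16). Without ventral replicates 1, 2 and 3 there were 1, 20 and 5 calls. Without ventral replicate 2, the library with the fewest genes, 17 of the 20 were higher ventrally. The 3 calls were all kept in 4 of these 6 fits, 2 of them were kept without ventral replicate 3, and none was kept without ventral replicate 1.

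**Figure D4:**
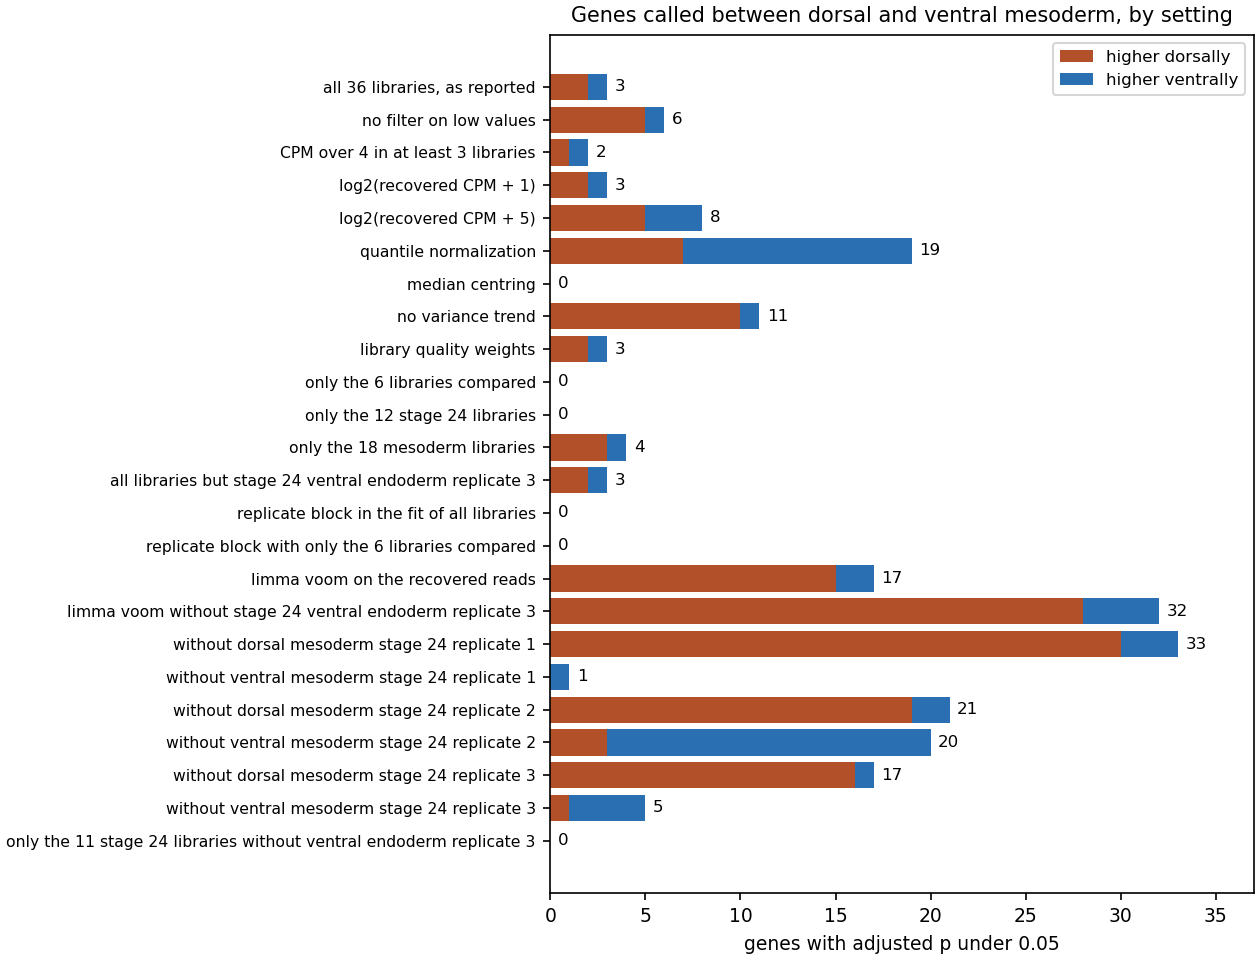
Number of genes with an adjusted p under 0.05 between dorsal and ventral stage 24 mesoderm (horizontal axis) in the reported fit and under each alternative (rows), split by the side on which they were higher. The count runs from 0 to 33, and the side with more calls changes with the library left out and with quantile normalization.

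AMCG00006945, which has no gar identifier, had 179, 44.2 and 925 CPM in dorsal mesoderm replicates 1, 2 and 3 and 0, 0 and 0.616 CPM in ventral ones, where the last value is 1 read. All 3 dorsal libraries lay above all 3 ventral ones, but the dorsal libraries differed widely among themselves (383 ± 474 CPM, SD, n = 3). The log2 difference was 6.61 (SE 1.16, limma adjusted p = 0.0181). As a ratio of summed reads to summed totals it was 945, with an exact 95% interval of 169 to 37365 that covers counting error only. With the 6 compared libraries alone the standard error was 1.34 (limma unadjusted p = 0.00303, adjusted p = 0.849). That adjusted p is the smallest of the fit and is shared by all genes described one by one. The adjusted p was 0.0667 without ventral replicate 1. Elsewhere the gene was read in 13 of the other 30 libraries, at no more than 64.9 CPM. In stage 25 mesoderm it had no read dorsally and 6.02, 0 and 0 CPM ventrally. At stage 27 it had 5.89, 49.4 and 23.5 CPM in dorsal and 64.9, 18.5 and 14.8 CPM in ventral mesoderm, where the sides overlapped. In stage 24 endoderm it had reads in replicate 2 of each side only, at 7.09 CPM dorsally and 1.42 CPM ventrally. Its side difference at stage 24 was larger than at stage 27 by 7.00 on the log2 scale (SE 1.64, limma adjusted p = 0.0499). In the same fit the differences from stage 25 and from stage 24 endoderm did not pass (adjusted p = 0.159 and 0.761). The difference from stage 25 passed in a few alternatives, such as limma voom (adjusted p = 0.0439), but not in most. That from endoderm passed only with limma voom (0.00332), and not when ventral endoderm replicate 3 was also left out (0.103). The stage 27 difference was close to the threshold: it passed in 6 of 19 alternatives, with adjusted p from 0.00625 to 0.998, and it did not pass without ventral replicates 1, 2 or 3 or dorsal replicate 3 (0.123, 0.118, 0.1 and 0.103).

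AMCG00005387, also without a gar identifier, was read only at low levels. It had 4, 7 and 9 reads in dorsal replicates 1, 2 and 3, or 2.65, 9.38 and 10.6 CPM, and 0 reads in each ventral library. Its mean of 7.55 ± 4.29 CPM (SD, n = 3) was at least 6.79-fold higher dorsally, against a floor of 3 counts over the ventral group (1.11 CPM). The log2 difference was 2.22 (SE 0.41, limma adjusted p = 0.0181). The standard error rested on other groups, in which the gene had a read in 2 of the 30 libraries only. With the 6 compared libraries alone it was 1.28 (limma unadjusted p = 0.136, adjusted p = 0.849). With limma voom the adjusted p was 0.884, and it was 0.377 when stage 24 ventral endoderm replicate 3 was left out of that fit. In the limma fit of log2 CPM it was 0.0667 without ventral mesoderm replicate 1 and 0.0533 without ventral mesoderm replicate 3. The remaining reads were 3 in a dorsal and 2 in a ventral mesoderm library of stage 27, and no endoderm library had a read. The gene thus passed the filter (over 1 CPM in at least 3 libraries) only through the dorsal libraries in which it was high. A filter of 4 CPM removed it.

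AMCG00019538 (spotted gar ENSLOCG00000012876) had 0 reads in each dorsal library and 28.5, 76.1 and 32.0 CPM in ventral replicates 1, 2 and 3, from 16, 39 and 52 reads. Its ventral mean of 45.5 ± 26.5 CPM was at least 47.1-fold higher than the floor of 0.967 CPM over the dorsal group. The log2 difference, dorsal minus ventral, was -4.55 (SE 0.87, limma adjusted p = 0.0253). With the 6 compared libraries alone the adjusted p was 0.849 (limma unadjusted p = 0.00937), and without ventral replicate 1 it was 0.0564. This gene was also read in ventral more than in dorsal mesoderm of the later stages, which are other libraries. At stage 25 it had 18.1, 0 and 58.4 CPM ventrally and no read dorsally. At stage 27 it had 1.71, 7.01 and 16.2 CPM ventrally and 2.94, 0 and 0 CPM dorsally. At each of these stages 1 ventral library did not exceed all dorsal ones. Over the mesoderm of stages 25 and 27 the mean log2 difference was -2.27, with a two-sided exact permutation p of 0.04 within stages and 0.16 after adjustment over the 4 genes described one by one, so it did not pass. In endoderm 1 of 18 libraries had a read, at 3.0 CPM in ventral replicate 1 of stage 27. In mesoderm of these later stages 5 of the 6 ventral libraries had a read against 1 of the 6 dorsal ones.

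As a second gene with a higher ventral level, AMCG00017786, with no gar identifier, missed the threshold (adjusted p = 0.0543). It had 26.7, 11.7 and 33.3 CPM in ventral replicates and 0, 1.34 and 0 CPM in dorsal ones, where 1.34 CPM is 1 read. The sides did not overlap, but this was required for its choice, as were reads in all 3 ventral libraries. The log2 difference was -3.44 (SE 0.73), and the ratio of ventral to dorsal reads was 86.3 with an exact 95% interval of 15.0 to 3452 for counting error only. It passed with limma on the 18 mesoderm libraries (adjusted p = 0.00579) and did not with the 12 stage 24 libraries (adjusted p = 0.862). In stage 24 endoderm, replicate 2 of each side held reads, at 16.2 CPM dorsally and 7.11 CPM ventrally. Ventral endoderm replicate 2 also held reads at stage 25 (1.18 CPM) and at stage 27 (8.86 CPM), and 1 mesoderm library of the later stages held 1 read.

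**Figure D5:**
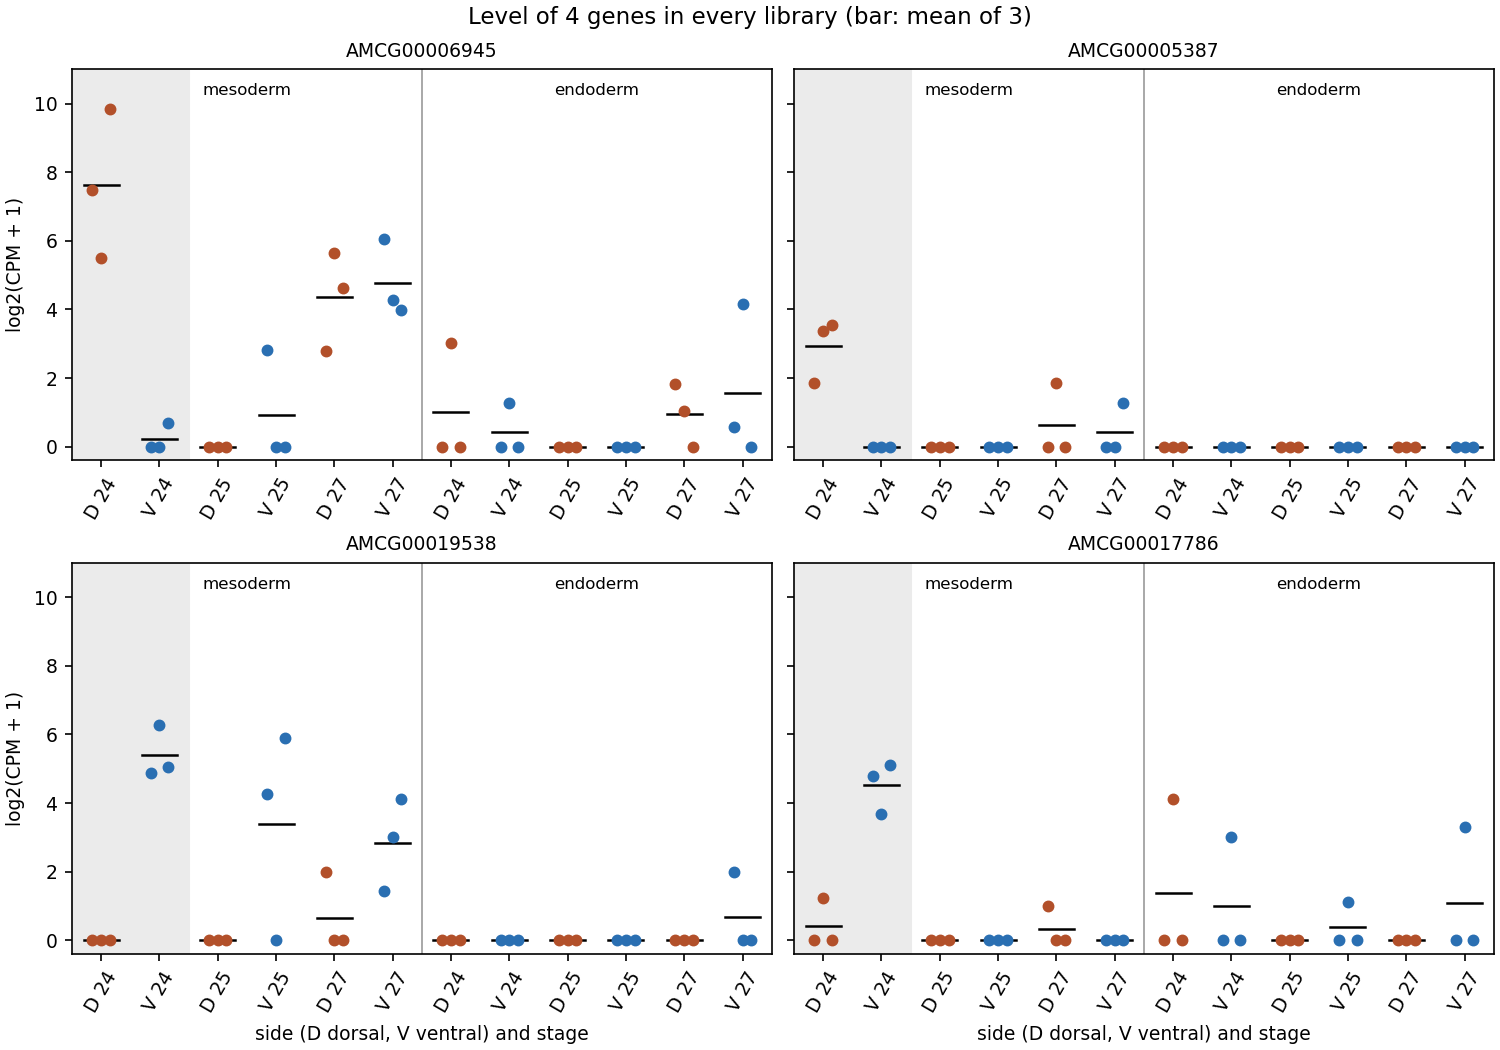
Level of 4 genes in each library as log2(CPM + 1) (vertical axis), by side and stage (horizontal axis), in mesoderm (left of the line) and endoderm (right), with bars at the mean of 3 libraries and the compared groups shaded. AMCG00019538 was read in 5 of 6 ventral and 1 of 6 dorsal mesoderm libraries of stages 25 and 27. AMCG00006945 also had reads on both sides at stage 27, and AMCG00017786 also had reads in 4 endoderm libraries.

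Beyond the called genes, the order of the 6 libraries was used as a description. All 3 dorsal libraries lay above all 3 ventral ones for 499 genes (3.53% of those tested), and all 3 ventral above all 3 dorsal for 104 (0.736%). The tested genes include 3530 with no read in these libraries. If the sides were alike, 6 distinct values would lie apart with a chance of 0.1, both directions counted together. No excess over that chance is read from these shares, and the sets are described by order only. With reads thinned to equal depth the counts were 429 (3.04%) and 96 (0.679%). The excess of dorsal-higher over ventral-higher genes changed in size with the library left out. With a library left out fewer values have to lie apart, so these counts are not on a like basis with 499 and 104. Without ventral replicate 2, 618 genes were higher dorsally and 561 ventrally, whereas without dorsal replicate 3 the counts were 1516 and 140. The other 4 omissions gave 785 to 984 and 178 to 316. Quantile normalization gave 407 and 266. Among the genes read in all 6 libraries 56 and 46 lay apart, as given above, but more of them were over 4-fold higher dorsally than ventrally in the fit (163 and 73). Over all tested genes that were read in these libraries 60.2% had the higher mean dorsally. The part of the number of genes read per library in this excess was not tested beyond these values.

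The genes with no overlap between sides were mixed in level. The 499 had a median dorsal mean of 81.1 CPM, and 233 of them had at least 20 CPM in each dorsal library. The 104 had a median ventral mean of 222 CPM, and 68 had at least 20 CPM in each ventral library. Of the 186 genes read in 3 dorsal and 0 ventral libraries, 26 had at least 20 CPM in every dorsal library and 93 had at most 3 reads in one of them. Together the 186 took 1.23%, 1.68% and 1.46% of the reads of dorsal replicates 1, 2 and 3. Of the 17 in the reverse pattern, 2 had at least 20 CPM in every ventral library and 12 had at most 3 reads in one. A gar ortholog was listed for 63.4% of the 186, 58.8% of the 17 and 59.5% of all tested genes.

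The same genes were looked up in stage 25 mesoderm, in libraries that played no part in choosing them. Of the 499 genes higher dorsally at stage 24, 234 had the higher mean dorsally at stage 25, 226 ventrally and 39 were not read (50.9% dorsal among those read, against 52.0% for all tested genes). Of the 104 genes higher ventrally, 50 were higher dorsally, 50 ventrally and 4 were not read. The direction at stage 24 was thus carried to stage 25 about as often as not. All 3 dorsal libraries of stage 25 lay above the ventral ones for 25 of the 499 (5.01%, against 1.97% of all tested genes) and the reverse held for 15 (3.01%, against 1.21%). Of the 104, 6 lay apart in the dorsal direction (5.77%) and 10 in the ventral direction (9.62%). The median log2 difference at stage 25 was 0.46 for the read genes among the 499, -0.02 for those among the 104 and 0.17 for all tested genes. Both sets also had more reads at stage 25 than the typical tested gene, with median dorsal means of 28.0 and 58.4 CPM against 0.42 CPM. The shares of all tested genes include 4626 genes with no read in stage 25 mesoderm, which cannot lie apart. Where the sides are alike, 6 distinct values lie apart with a chance of 0.1, both directions counted together, whereas the shares given here each cover a single direction. The part of expression level in the shares of genes lying apart, which were above those of all tested genes in both directions, was not tested.

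The lookup was also made from stage 25 back to stage 24. Of the 278 genes (1.97%) whose stage 25 dorsal libraries all lay above the ventral ones, 167 had the higher mean dorsally at stage 24, 107 ventrally and 4 were not read, or 60.9% dorsal, against 60.2% of all tested genes. Of the 171 genes (1.21%) in the ventral direction at stage 25, 91 were higher dorsally at stage 24 and 75 ventrally (54.8% dorsal). Genes apart on both occasions in the same direction numbered 25 of the 278 dorsally (8.99%, against 3.53% of all tested genes) and 10 of the 171 ventrally (5.85%, against 0.736%). Those apart in opposite directions numbered 15 of the 171 that were dorsal at stage 24 (8.77%) and 6 of the 278 that were ventral at stage 24 (2.16%). These 25, 10, 15 and 6 genes are the same ones as in the lookup from stage 24, divided by other totals, and are no second result. The shares of all tested genes include the 3530 with no read in stage 24 mesoderm, which cannot lie apart. As above, the chance of 0.1 covers both directions together, and the part of expression level was not tested.

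Differences between the side contrasts were tested directly in the limma fit over all libraries. Between stage 24 and stage 25 mesoderm 0 genes differed in their side contrast (smallest adjusted p 0.13, with 769 genes at an unadjusted p under 0.05). Here limma voom called 21, and 52 without stage 24 ventral endoderm replicate 3. Between stage 24 and stage 27 mesoderm 35 genes differed in their side contrast in the fit over all libraries (0.248%): 23 had the more dorsal contrast at stage 24 and 12 at stage 27. The median over all tested genes of this difference was 0.54 on the log2 scale, and the mesoderm libraries of stage 27 held reads of 8511 to 13512 genes, against 2700 to 7283 at stage 24. The labels give each stage its own range of library numbers, so a difference between stages and one between these ranges cannot be told apart. With median centring, which also moved genes with no read, the count was 0. It was 1 with limma voom and 11 with limma voom without stage 24 ventral endoderm replicate 3. Between mesoderm and endoderm of stage 24, 2 genes differed in their side contrast (0.0142%), both more dorsal in mesoderm. Without ventral endoderm replicate 3, a library of 3040 reads, that count was 0 in the fit of all other libraries, 2 in a fit of the other 11 stage 24 libraries and 4 with limma voom.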

How the data were processed

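RNA was measured in 36 libraries, 3 in each of 12 groups of side, layer and stage. The authors deposited 1 table of log2 CPM (log2 of the reads per 1000000 reads of the library, with a constant added to avoid 0) for 21948 genes. Per the submitters' processing notes, Trimmomatic 0.38, STAR 2.6, edgeR and R 3.6.0 were used. The read counter, genome build and annotation are not given in the sources used here. Each library's total was recovered from the table's low values with a prior count of 2. All values below 200 reads then came out whole within 0.02 reads, and the deposited log2 values were rebuilt to within 5e-09. No pair of libraries was identical, and 4629 genes had no read in any library. Reads passed through amplification without molecular identifiers, so intervals and floors (3 counts over a group) cover counting error only.

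Genes over 1 CPM in at least 3 libraries were tested (14132, of which 59.5% list a gar ortholog). The deposited log2 values were fitted with limma 3.58.1 in R 4.3.3, with 1 mean per group over all 36 libraries, a variance trend and Benjamini-Hochberg adjustment over all tested genes (threshold 0.05). Single values were compared by exact permutation (scipy 1.17.1, Python 3.11.15). The scripts were checked on simulated data. Where no gene names are given, the rule for named genes took up to 2 called genes per direction. Where fewer were called, it took the gene with the smallest p among those without overlap between sides, and it also took the most-read gene. Lists of foregut, signalling and cell type genes had been drawn up but could not be used without gene names. The comparison, its lists and its tests were chosen with earlier results of these data known. Alternatives changed the filter, the added constant, the scaling, the variance model, the libraries fitted, the replicate block and the count model (limma voom on the recovered reads). Thinned counts of genes without overlap, and a fit of 11 stage 24 libraries, were added after seeing the data.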

Additional observations from a re-analysis of the deposited data

Results flagged for a closer look

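The side difference in mesoderm was tested between stages. In 35 genes (0.248% of those tested) it differed between stage 24 and stage 27 (limma, Benjamini-Hochberg adjusted p under 0.05). The count was 0 with median centring and 1 with limma voom. Stage and range of library numbers cannot be told apart here. AMCG00006945 was one of the 35. Its dorsal minus ventral difference was larger at stage 24 by 7.00 on the log2 scale, with no overlap of sides in 6 libraries at stage 24 and overlap at stage 27. Its adjusted p was 0.0499, and it passed in 6 of 19 alternatives (0.00625 to 0.998). Between mesoderm and endoderm of stage 24 the side difference itself differed in 2 genes (0.0142%). Without ventral endoderm replicate 3 it differed in 0 genes over all other libraries, in 2 over the other 11 stage 24 libraries and in 4 with limma voom.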

How the results depend on the processing

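The 4 genes described one by one were fitted under 23 alternatives each (22 for AMCG00005387, which a filter of 4 CPM removed). They passed the adjusted threshold in 15 (AMCG00006945), 11 (AMCG00005387), 14 (AMCG00019538) and 5 (AMCG00017786) of them. Their direction stayed the same in all, but this is no check. Each gene had at most 1 read on its lower side and reads in all 3 libraries of the other, so these settings could hardly turn it. The count of 3 called genes became 6 without a filter, 8 with 5 CPM added, 19 with quantile normalization, 0 with median centring, 11 without a variance trend, 17 with limma voom and 32 with limma voom without ventral endoderm replicate 3. It was 0 with the 6, the 12 or, added after seeing the data, 11 of the stage 24 libraries, and it ran from 1 to 33 with 1 library left out. Quantile normalization and limma voom moved the median of all genes by -0.135 and -0.295 on the log2 scale. Median centring moved genes with no read by amounts that differed between libraries. The labels do not say that a replicate number marks shared embryos or a shared batch, and deviations of same-numbered libraries correlated at 0.014, -0.028 and -0.047 (-0.047 to 0.054 over all 9 pairs), so the numbers were not used as pairs. With the replicate block, limma called 0 genes over all libraries (1112 with an unadjusted p under 0.05, adjusted p 0.0501 for AMCG00006945 and AMCG00005387 and 0.0574 for AMCG00019538) and 0 in the 6 alone (237 with an unadjusted p under 0.05), and the block also gave 0 for the mesoderm against endoderm difference. Genes without overlap numbered 171 dorsally and 15 ventrally with a gap of at least 4 times, and 266 ventrally with quantile normalization; with 1 library left out they numbered 618 to 1516 and 140 to 561. The difference of side contrasts from stage 25 gave 2 genes with quantile normalization, 6 without a trend, 1 with the 18 mesoderm libraries, 21 with voom, 52 with voom without ventral endoderm replicate 3, and 0 to 7 with 1 library left out. That from stage 27 gave 89 without a filter, 19 with a filter of 4 CPM, 53 with 5 CPM added, 17 with quantile normalization, 0 with median centring, 54 with the mesoderm libraries, 1 with voom, 11 with voom without ventral endoderm replicate 3, and 23 to 50 with 1 library left out. That from stage 24 endoderm gave 1 with 5 CPM added or quantile normalization, 0 with median centring, the 12 stage 24 libraries or without ventral endoderm replicate 3, 793 with voom, 4 with voom without that replicate, and 1 to 6 with 1 library left out. The share of the leading gene differed by 4.49 percentage points, and that of the 100 leading genes by -0.521. For endoderm-higher genes the share differed by -0.237 to 0.234 with 1 library left out (positive at 0.234, 0.00948 and 0.0294), by -0.559 with genes from stage 27 alone, and the number of them read differed by 18.7. Apart from settings that change the genes or libraries used, the cause was not tested. Depth limits statements on low genes: the smallest of the 6 libraries held 512370 reads, and 93 of the 186 genes read on the dorsal side alone had at most 3 reads in a library.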
